A study of Mus musculus with 20 samples.

Results

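The 10 genes described here are both mouse hepcidin genes and 8 genes that control or carry out iron handling in the liver: Hamp, Hamp2, Bmp6, Id1, Tfr2, Tfrc, Trf, Slc40a1, Fth1 and Ftl1. They were chosen by symbol from a table of 46095 gene symbols, all 10 were found there, and all 10 were among the 14440 genes abundant enough to be tested. Liver RNA of 20 mice was sequenced, 5 per group. Wild-type (WT) mice and Pck1 knockout (KO) mice were fed either chow or a diet that produces non-alcoholic steatohepatitis, a fatty and inflamed liver (NASH diet), which makes 4 groups. Feeding lasted 24 weeks in every group, and the age at sampling was 31 to 33 weeks. Pck1 encodes the cytosolic form of phosphoenolpyruvate carboxykinase, an enzyme of gluconeogenesis, and the series title calls its knockout liver-specific. The promoter that drives the deletion is not given in the sources used here.

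Hepcidin is a peptide hormone made mainly by hepatocytes. It binds ferroportin, the iron exporter encoded by Slc40a1, and causes its degradation, so that less iron enters the blood from gut, macrophages and liver. Transcription of Hamp is driven by iron through BMP6, a ligand released by sinusoidal endothelial cells, whose receptors act through SMAD proteins, and by inflammation through IL-6 and STAT3. Inside cells, iron regulatory proteins bind hairpins called iron-responsive elements in messenger RNA. In a 3′ untranslated region this binding protects the message from decay, and in a 5′ untranslated region it blocks translation. The second mouse hepcidin gene, Hamp2, is a close copy of Hamp, and its peptide has not been shown to share the role of Hamp in iron balance.

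The bases before the RefSeq starts of Hamp and Hamp2 are shown because the genes differed in level while their upstream sequences are near copies. Both lie on chromosome 7, minus strand, with Hamp at chr7:30942368-30944032 and Hamp2 at chr7:30922372-30924681 (GENCODE M21, build GRCm38). The printed windows, from RefSeq on build GRCm38.p6, are chr7:30944033-30944279 for Hamp and chr7:30924182-30924431 for Hamp2, written 5′ to 3′ on the minus strand. GENCODE places the start of Hamp2 further upstream than RefSeq does, so the Hamp2 window lies inside the GENCODE gene. The Hamp window adjoins the GENCODE start, because bases before the RefSeq start that a GENCODE exon covers were left out. Capitals mark GGCGCC, the core of a BMP-responsive element, in Hamp, the bases that face it in Hamp2, and TTCNNNGAA, the half-sites bound by STAT factors, in both.
Hamp: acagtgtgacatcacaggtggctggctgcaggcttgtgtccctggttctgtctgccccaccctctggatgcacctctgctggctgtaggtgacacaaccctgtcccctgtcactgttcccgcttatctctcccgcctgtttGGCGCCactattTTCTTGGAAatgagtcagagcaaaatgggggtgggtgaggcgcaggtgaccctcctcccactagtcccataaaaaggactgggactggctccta
Hamp2: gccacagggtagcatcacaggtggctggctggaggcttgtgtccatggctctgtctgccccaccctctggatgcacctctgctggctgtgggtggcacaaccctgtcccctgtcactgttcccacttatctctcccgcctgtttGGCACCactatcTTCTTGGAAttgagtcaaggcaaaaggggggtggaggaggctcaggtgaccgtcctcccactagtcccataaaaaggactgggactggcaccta
Over 247 aligned bases, 227 were identical (91.9%). The window of Hamp held GGCGCC once, and the facing bases of Hamp2 differed from it by the substitution G4A, with positions counted from 1 at the 5′ end of the motif. TTCNNNGAA, searched on both strands like the other motifs, was present once in each window as TTCTTGGAA, and CACGTG, the E-box, was present in neither. Among 32851 RefSeq promoter windows of 250 bases, 9.59% held GGCGCC, 7.02% held TTCNNNGAA and 6.02% held CACGTG. Of the 10 genes, 7 had an entry in the promoter table.

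Iron-responsive elements are shown because the messages that carry them at opposite ends, Tfrc and Slc40a1, differed in opposite directions between the genotypes on the NASH diet. The search asked for an unpaired C, 5 paired bases and the loop CAGTG, in capitals below, in the untranslated regions of GENCODE M21. Tfrc had 4 such elements in its 3′ untranslated region, on the plus strand, at chr16:32631219-32631248, chr16:32631598-32631627, chr16:32631663-32631692 and chr16:32631710-32631739. Slc40a1 (chr1:45925464-45925493, minus strand), Fth1 (chr19:9982732-9982761, plus strand) and Ftl1 (chr7:45459778-45459807, minus strand) had 1 each, in the 5′ untranslated region.
Tfrc element 1: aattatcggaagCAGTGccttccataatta
Tfrc element 2: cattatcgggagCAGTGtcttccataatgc
Tfrc element 3: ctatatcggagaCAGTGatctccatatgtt
Tfrc element 4: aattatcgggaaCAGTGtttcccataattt
Slc40a1: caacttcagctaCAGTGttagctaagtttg
Fth1: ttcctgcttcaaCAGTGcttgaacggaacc
Ftl1: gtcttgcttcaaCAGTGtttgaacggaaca
The same pattern was found in the 5′ untranslated regions of 18 of 20363 genes (0.0884%) and in the 3′ untranslated regions of 103 of 20633 genes (0.499%). The pattern is a description of the letters, and no binding was measured. Fth1 and Ftl1, which carry it at the same end as Slc40a1, differed by 0.06 and 0.16 on the log2 scale between KO NASH and WT NASH. Neither was called. The part of the elements in any difference was not tested. The search was chosen after the values of the genes had been seen.

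Library totals ranged from 9958935 to 20601955 counts. Levels are given in CPM, which are counts divided by the TMM-adjusted library total and brought to one scale for all libraries. The targeted gene Pck1 averaged 3573 and 2290.1 CPM in WT chow and WT NASH, and 626 and 445 CPM in KO chow and KO NASH, and no KO library reached the level of any WT library. Hepatocyte markers (6 genes) summed to 44593 to 116730 CPM per library, and pancreas markers (5 genes) summed to at most 1.62 CPM. Sex, which the labels do not give, was read from 4 Y-linked genes: 13 libraries were male and 7 female. All 5 WT chow livers were male, while 4 of 5 WT NASH, 2 of 5 KO chow and 1 of 5 KO NASH livers were female. In 6 libraries (replicates 3, 4 and 5 of WT chow, replicate 4 of WT NASH, replicates 4 and 5 of KO chow) long genes had lower levels and short genes higher levels than in the other 14. KO NASH replicates 1 and 5 were closer to each other than any of the other 39 pairs of libraries of 1 group, with a mean chi-square of 8.06 per gene against 21.1 to 455. The labels do not say how the mice were related, so p-values measure the spread between these samples. In whole liver, fewer cells of a type and less RNA per cell cannot be told apart.

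Per kilobase of exonic length, the mean level over the 20 libraries ran from Trf at 2659 CPM per kb, through Ftl1 at 856, Hamp at 771, Fth1 at 245 and Hamp2 at 223, to Tfr2 at 73.3, Slc40a1 at 13.96, Tfrc at 9.13, Id1 at 8.84 and Bmp6 at 1.15 CPM per kb. The ranges over libraries of Trf (951 to 5014), Ftl1 (497 to 1259) and Hamp (117 to 2292) overlapped, as did those of Fth1 (126 to 336) and Hamp2 (3.41 to 1356) and those of Slc40a1, Tfrc and Id1. Hamp2 varied most, by 397-fold between its lowest and highest library. Hamp varied by 19.5-fold and Id1 by 12.8-fold, while Tfr2 varied by 2.06-fold.

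**Figure D1:**
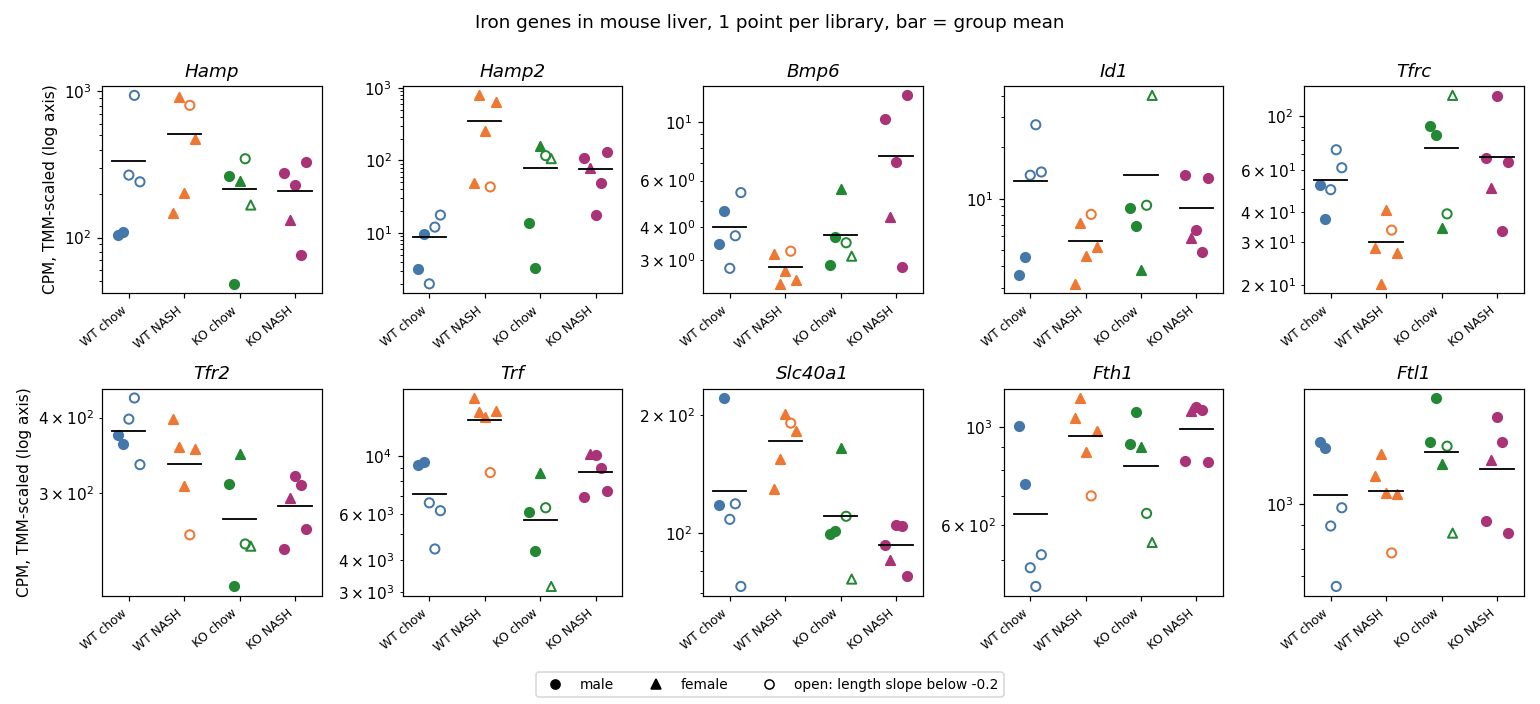
CPM (log axis, TMM-scaled) of each of the 10 genes in each of the 20 libraries, with a bar at the group mean; circles are male, triangles female, and open symbols are the 6 libraries in which short genes had higher levels. All 5 WT NASH libraries lie above all 5 WT chow libraries for Hamp2, and all 5 KO NASH libraries lie below all 5 WT NASH libraries for Slc40a1.

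The diet was compared within WT livers first. Of the 10 genes, Hamp2 alone rose (1 of 10). Of all tested genes, 2.69% rose and 5.93% were called in either direction at an adjusted p under 0.05. Hamp2 stood at 3.14, 9.64, 1.99, 12.1 and 17.7 CPM in WT chow replicates 1 to 5, and at 48.9, 791, 256, 43.3 and 635 CPM in WT NASH. The lowest WT NASH library was above the highest WT chow library, and 6.15% of all tested genes had groups that did not overlap here. Its log2 fold change was 5.32 (SE 1.04), with an adjusted p of 0.00521 by edgeR's quasi-likelihood F test. Sex moved with these groups, since Hamp2 ranged from 48.9 to 791 CPM in the 7 female libraries and from 1.99 to 132 CPM in the 13 male libraries. The 1 male WT NASH library, replicate 4, had the lowest Hamp2 level of its group, 43.3 CPM, and lay above all 5 male WT chow libraries. With sex as a term the log2 fold change was 3.78 (adjusted p = 0.148, edgeR), with sex and the length slope it was 3.91 (adjusted p = 0.0587), and among male libraries alone it was 2.26 (adjusted p = 0.415). Within WT livers, the diets can be compared at equal sex through that 1 male library only.

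Hamp, the main source of hepcidin, showed no such separation. Its values were 104, 108, 267, 939.8 and 241 CPM in WT chow and 148, 923, 202, 803 and 471 CPM in WT NASH. The highest library of each group lay far above its lowest, and the groups overlapped throughout. They differed by 0.62 on the log2 scale (SE 0.63, adjusted p = 0.588, edgeR), with a 95% interval from -0.61 to 1.84. The value rested on few libraries: it was 1.49 without WT chow replicate 4, 0.29 without WT NASH replicate 2, and 2.05 (adjusted p = 0.155) without the 6 libraries of negative length slope, and it was called under none of the alternatives.

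The ratio of Hamp2 to Hamp, taken within each library, had a median of 0.0301 for WT chow and 0.857 for WT NASH, and of 0.337 for KO chow and 0.398 for KO NASH. Two-sided exact permutation tests of its log2 gave p = 0.0238 for WT NASH against WT chow and p = 0.0476 for KO chow against WT chow, both 0.0952 after adjustment over the 4 comparisons, where 0.00794 was the smallest p that 5 libraries against 5 can give. The p-values of both comparisons with KO NASH were 0.587 and 0.476. This ratio was chosen for testing after its values were seen. It ranged from 0.331 to 1.35 in female libraries (median 0.639) and from 0.00744 to 0.643 in male libraries (median 0.0734). The transcripts of the hepcidin genes, 410 and 420 bases long, were 94.6% identical over 410 aligned bases. Of the 361 windows of 50 bases in Hamp, 60 also occurred in Hamp2, and of the 311 windows of 100 bases none did, so that short reads could be assigned to the wrong copy and the levels of both are uncertain to that extent.

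**Figure D2:**
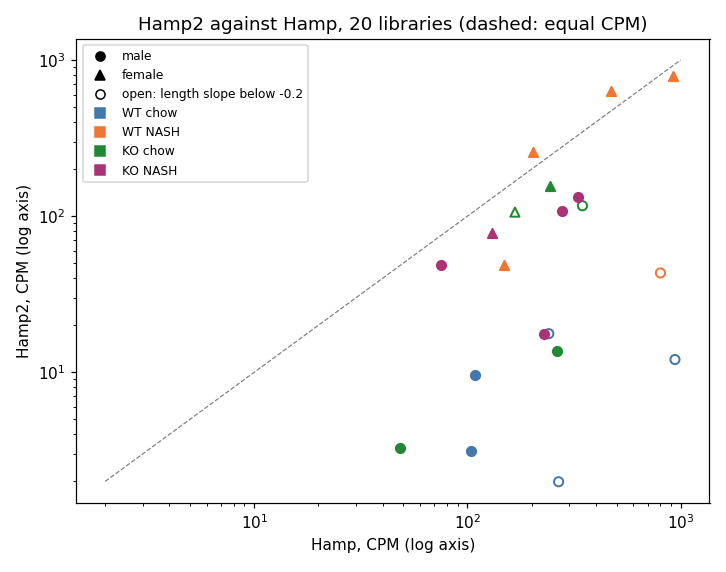
Hamp2 against Hamp in CPM (both axes log) in the 20 libraries, coloured by group, with circles for males and triangles for females; the dashed line marks equal levels. Female libraries have ratios of 0.331 to 1.35 and lie near the line, and male libraries spread below it down to a ratio of 0.00744. The male KO chow replicate 4 (0.337) and KO NASH replicates 1, 4 and 5 (0.387, 0.643 and 0.398) lie within the female range. The other male libraries, of both genotypes, have ratios of at most 0.089.

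Over all 20 libraries, log2(CPM + 0.5) of Hamp and Hamp2 had a Pearson r of 0.43 (permutation p = 0.0611, 0.287 adjusted over 5 pairs) and a Spearman rho of 0.39 (permutation p = 0.0929, adjusted 0.232). Without KO chow replicate 2 and WT chow replicate 4, the libraries farthest from the median of Hamp, r was 0.46. Centred on group means it was 0.45. Within the 14 libraries of similar length slope r was 0.77, within the other 6 it was -0.12, within males 0.37 and within females 0.92.

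The genes most like Hamp2 across the 20 libraries, among 11636 genes of at least 1 CPM, were Slc22a27 (r = 0.84), Slc22a26 (0.83) and Sytl5 (0.81). Slc22a27 ranged from 0 to 1.80 CPM in the WT chow livers, all male, and from 0 to 146 CPM in the WT NASH livers, 4 of 5 female, so that these groups overlapped. Those most like Hamp were Ms4a4b (0.80), Klrd1 (0.78), which encodes a receptor subunit of natural killer cells, and Ly6a (0.78), which encodes a surface protein of stem cells and lymphocytes. Ly6a ranged from 7.70 to 104 CPM in WT chow and from 8.00 to 11.4 CPM in KO NASH.

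The other 9 genes did not pass the test for the diet in WT livers. Trf, which encodes transferrin, the iron carrier of plasma, was nearest. It had 9194, 9429.7, 6602, 4395 and 6159.9 CPM in WT chow and 16648, 14674, 14058, 8621 and 14787 CPM in WT NASH. Of the WT NASH libraries 4 lay above every WT chow library, and the male replicate 4 did not. The log2 fold change was 0.94 (SE 0.28, adjusted p = 0.0539, edgeR), it passed the test without WT NASH replicate 4 (1.07, adjusted p = 0.0172) and when any 1 of WT chow replicates 1 and 2 and KO chow replicates 3 and 5 was left out (adjusted p 0.0381 to 0.0472), and DESeq2 gave 0.00702. Among male libraries alone Trf differed by 0.24. Tfrc, which encodes the transferrin receptor that takes up loaded transferrin, differed by -0.86 (adjusted p = 0.146), and Fth1 by 0.58 (adjusted p = 0.176).

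The genotype was compared on chow next. None of the 10 genes was called by edgeR (0 of 10, with 5.53% of all tested genes called), 2 had an unadjusted p under 0.05, and DESeq2 called 2, Hamp2 (adjusted p = 0.00892) and Tfr2 (adjusted p = 0.0297). Hamp2 had 13.6, 3.26, 156, 117 and 106 CPM in KO chow. The first and second libraries were within the range of WT chow and the other 3 were above 100 CPM, against at most 17.7 CPM in WT chow. The log2 fold change was 3.15 (SE 0.95, adjusted p = 0.0554, edgeR), and it passed the test without WT NASH replicate 1 or 4 or KO chow replicate 2 (adjusted p 0.0363 to 0.0488). Of those 3 high libraries, replicates 3 and 5 were female and replicate 4 was male. Tfr2, which encodes the transferrin receptor that hepatocytes use to sense loaded transferrin, had 375, 362, 398, 431 and 334 CPM in WT chow and 309.9, 209.6, 348, 247 and 245 CPM in KO chow. In 4 of the 5 KO chow libraries it lay below every WT chow library, and its log2 fold change was -0.48 (SE 0.18, adjusted p = 0.129, edgeR).

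The genotype on the NASH diet gave the most calls. Bmp6 and Tfrc rose and Slc40a1 fell in KO NASH livers relative to WT NASH livers (3 of 10). Of all tested genes, 4.9% rose, 4.74% fell and 9.65% were called in either direction. Both hepcidin genes had lower means in KO NASH, without passing the test. Slc40a1 was the only one of the 10 whose groups did not overlap in CPM, as was the case for 14.1% of all tested genes.

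Bmp6, the ligand that signals iron stores to hepatocytes, was low in every library. It had 3.16, 2.43, 2.72, 3.24 and 2.52 CPM in WT NASH and 10.3, 4.36, 7.08, 2.83 and 12.7 CPM in KO NASH. Of the KO NASH libraries 4 lay above all WT NASH libraries and replicate 4 lay among them. The log2 fold change was 1.41 (SE 0.33, adjusted p = 0.0119, edgeR), and it passed the test whichever library was left out (adjusted p at most 0.0427). The highest levels were in KO NASH replicates 1 and 5, the pair that stood closest together, and with those summed into 1 sample the log2 fold change was 1.21 (adjusted p = 0.037). With sex as a term it was 1.32 (adjusted p = 0.0611), and among males alone, with 1 WT NASH library, 1.37 (adjusted p = 0.19). The sums of 8 sinusoidal endothelial markers were 199 to 298 CPM in WT NASH and 244 to 384 CPM in KO NASH. Of these markers 2 of 8 were called, beside 9.65% of all tested genes. Both were higher in KO NASH, Kdr by 0.66 and Lyve1 by 1.62 on the log2 scale. The others were not called, and of them Clec4g alone was lower (-0.24). The part of these markers in the Bmp6 difference was not tested.

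Bmp6 within the KO genotype averaged 3.74 CPM on chow and 7.44 CPM on the NASH diet. That difference of 0.99 (SE 0.32) had an adjusted p of 0.0888 by edgeR. It passed the test without KO chow replicate 3 (adjusted p = 0.0463) or without KO NASH replicate 4 (adjusted p = 0.0449).

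Id1, a target gene of BMP and SMAD signalling, did not differ by the test in any comparison. Its levels were 3.16, 7.24, 4.60, 8.09 and 5.23 CPM in WT NASH and 13.8, 5.90, 6.52, 4.84 and 13.3 CPM in KO NASH, with a log2 fold change of 0.66 (SE 0.58, adjusted p = 0.515, edgeR). The highest 2 of these values again belonged to KO NASH replicates 1 and 5. Over all 20 libraries the Pearson r of Bmp6 with Id1 was 0.18 (permutation p = 0.459, adjusted 0.573) and the Spearman rho was 0.15 (permutation p = 0.527, adjusted 0.659). Without KO NASH replicates 1 and 5 r was -0.06. Within the 14 libraries of similar length slope r was 0.60, within the other 6 it was -0.06, within males 0.27, within females -0.19, and centred on groups 0.12.

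Bmp6 with Hamp gave r = -0.02 (permutation p = 0.93, adjusted 0.93) and rho = -0.08 (permutation p = 0.742, adjusted 0.742). Within males r was 0.13, within females -0.50, within the 14 libraries of similar slope 0.08, within the other 6 -0.04, and centred on groups 0.28. It was -0.19 without KO NASH replicates 1 and 5. Id1 with Hamp gave r = 0.36 (permutation p = 0.115, adjusted 0.287) and rho = 0.50 (permutation p = 0.0259, adjusted 0.13). It was 0.38 without KO chow replicate 5 and WT chow replicate 4, 0.59 centred on groups, 0.70 in males, -0.07 in females, 0.35 in the 14 libraries of similar slope and -0.29 in the other 6. Tfrc with Hamp gave r = -0.23 (permutation p = 0.324, adjusted 0.541) and rho = -0.16 (permutation p = 0.497, adjusted 0.659). That r was -0.03 without WT NASH replicate 2 and KO chow replicate 5, 0.07 centred on groups, 0.01 in males, -0.63 in females, -0.30 in the 14 libraries and -0.47 in the other 6. None of the 5 pairs passed the adjustment over all 20 libraries.

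Hamp in KO NASH had 278, 131, 228, 75.5 and 331 CPM. All 5 values lay within or below the range of WT NASH, and the group averaged 209 CPM against 509.5 CPM. The log2 fold change was -1.29 (SE 0.63, adjusted p = 0.207, edgeR), with a 95% interval from -2.53 to -0.05. Hamp2 in KO NASH had 108, 78.0, 17.6, 48.6 and 132 CPM, below the 3 highest WT NASH libraries, all of them female, and around the 2 lowest. Its log2 fold change was -2.21 (SE 0.90, adjusted p = 0.126, edgeR), and among male libraries alone it was 0.85 (adjusted p = 0.719), with the opposite sign.

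Tfrc, whose message carries the 4 elements printed above, had 28.5, 20.2, 40.7, 33.7 and 27.1 CPM in WT NASH and 67.2, 50.4, 122, 33.3 and 64.6 CPM in KO NASH. Of the KO NASH libraries 4 lay above all WT NASH libraries, and replicate 4 lay among them. A log2 fold change of 1.17 resulted (SE 0.35, adjusted p = 0.0382, edgeR). It passed the test in 18 of 30 alternative settings, 13 of them with 1 library left out. It no longer passed when any 1 of 7 libraries was left out (WT NASH replicates 1, 2, 4 and 5 and KO NASH replicates 1, 3 and 5), with adjusted p up to 0.131 and a log2 fold change of at least 0.84. Among the other settings, it did not pass with sex as a term (1.08, adjusted p = 0.127, edgeR) or with KO NASH replicates 1 and 5 summed (1.19, adjusted p = 0.0694, edgeR), and these are not all of the losses. Among males alone, with 1 WT NASH library, the log2 fold change was 1.12.

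Slc40a1, which encodes ferroportin and carries its element in the 5′ untranslated region, had 129, 154, 201, 191 and 183 CPM in WT NASH and 93.2, 85.4, 105, 104 and 77.6 CPM in KO NASH. Every KO NASH library lay below every WT NASH library. It fell by 0.88 on the log2 scale (SE 0.25, adjusted p = 0.0322, edgeR), from a mean of 172 CPM to 93.0 CPM. It no longer passed the test when any 1 of 8 libraries was left out (WT NASH replicates 2, 3, 4 and 5 and KO NASH replicates 1, 2, 3 and 5), with adjusted p up to 0.087 and a log2 fold change from -0.97 to -0.81, or with sex as a term (-0.89, adjusted p = 0.0869), among males alone (-0.98, adjusted p = 0.14), without the low-count filter (-0.84, adjusted p = 0.0616) or with KO NASH replicates 1 and 5 summed (-0.84, adjusted p = 0.0748). Kupffer cells, the liver macrophages that recycle iron from red blood cells, also express ferroportin. Their 6 markers summed to 337 to 758 CPM in WT NASH and 236 to 333 CPM in KO NASH, without overlap. Of the 6, 1 was called, Timd4 with a log2 fold change of -1.42, beside 9.65% of all tested genes. Taken singly, Timd4 and Clec4f did not overlap, as was the case for 14.1% of all tested genes, and the others did. The part of Kupffer cells in the Slc40a1 difference was not tested.

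Trf in KO NASH had 6947, 10135, 10085, 9003 and 7351 CPM. These values lay below 4 of the 5 WT NASH libraries and around the male one, and the log2 fold change was -0.66 (SE 0.28, adjusted p = 0.145, edgeR). Leaving out the 6 libraries of negative length slope gave -0.79 (adjusted p = 0.0151), and among males alone it was -0.02. Tfr2 differed by -0.23 (adjusted p = 0.449).

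**Figure D3:**
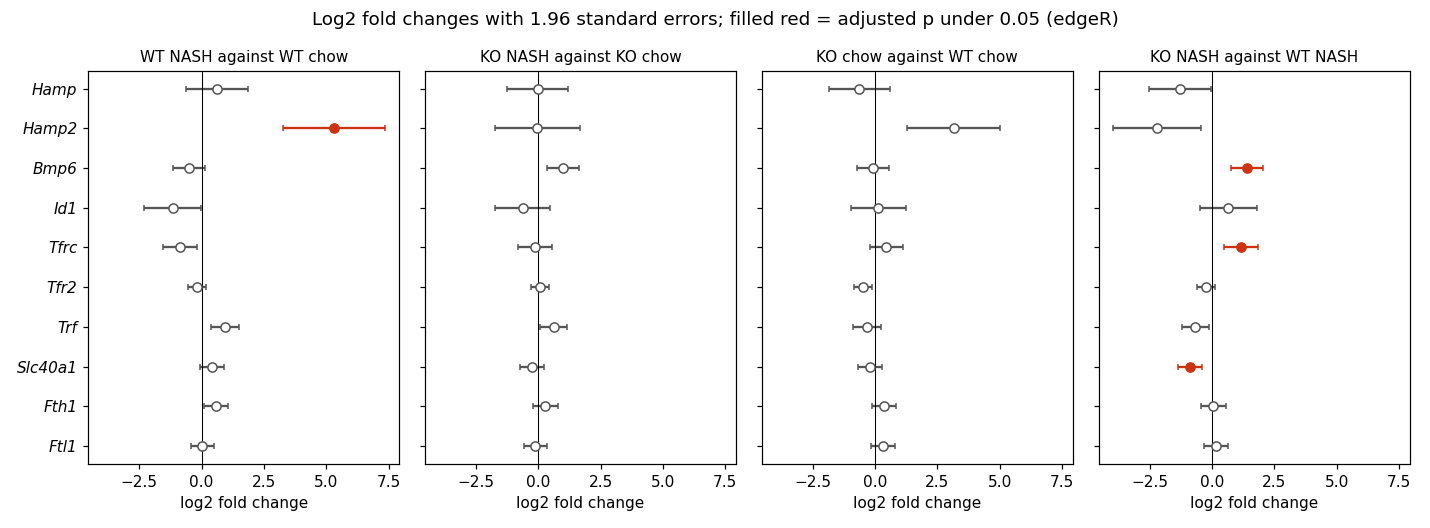
Log2 fold changes of the 10 genes in 4 comparisons, with bars for the 95% interval; filled red points passed an adjusted p of 0.05 (edgeR, over all tested genes). Hamp2 passed for WT NASH against WT chow, and Bmp6, Tfrc and Slc40a1 passed for KO NASH against WT NASH.

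Within the KO genotype, the diet gave no call (0 of 10 by edgeR, with 3.29% of all tested genes called), 2 of the 10 had an unadjusted p under 0.05, and DESeq2 called 1. Hamp averaged 214 CPM in KO chow and 209 CPM in KO NASH (log2 fold change -0.03, 95% interval -1.26 to 1.19), and Hamp2 79.2 and 76.8 CPM (-0.04, interval -1.74 to 1.65). The 39.8-fold difference of Hamp2 with diet in WT livers and its 0.970-fold difference in KO livers gave an interaction of -5.36 on the log2 scale (SE 1.31). The interaction is the effect of the NASH diet in KO livers less that in WT livers. It had an unadjusted p of 0.000548 and an adjusted p of 0.115 by edgeR, an adjusted p of 0.00602 by DESeq2, 0.0341 by edgeR without WT NASH replicate 4 and 0.0458 with the length slope as a term. Those 3 were the only calls among 30 alternative settings. Without replicate 4, its only male library, WT NASH was all female while WT chow was all male. Among male libraries alone the interaction was -1.47. For Bmp6 the interaction was 1.504 (SE 0.46, adjusted p = 0.231, edgeR). No gene of the 10 was called for the interaction by edgeR (0 of 10, with 0.139% of all tested genes called), 2 had an unadjusted p under 0.05, and DESeq2 called 1.

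The ferritin subunits, which form the shell that stores iron, gave no call in any comparison. Fth1, the heavy subunit, had 1006, 745, 481, 437 and 515 CPM in WT chow and 1049, 1165, 879, 699 and 979.6 CPM in WT NASH. In KO livers it had 919, 1085, 902, 639 and 549 CPM on chow and 837, 1086, 1113, 1095 and 835 CPM on the NASH diet. The 6 libraries in which short genes had higher levels were its 6 lowest, 437 to 699 CPM against 745 to 1165 CPM in the other 14. Ftl1, the light subunit, spanned 666 to 1330.0 CPM in those 6 and 865 to 1687 CPM in the others. Id1 had 8.09 to 40.4 CPM in the 6 and 3.16 to 13.8 CPM in the others. The share of these libraries differed between groups (3 of 5 and 1 of 5 in WT on chow and on the NASH diet, 2 of 5 and 0 of 5 in KO). None of Fth1, Ftl1 and Id1 was called with the slope as a term, with sex and slope as terms, or without these 6 libraries. The part of these libraries in the levels of the 3 genes was not tested beyond those fits. The table also held rows for pseudogenes of both ferritin genes, so their counts are uncertain.

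**Figure D4:**
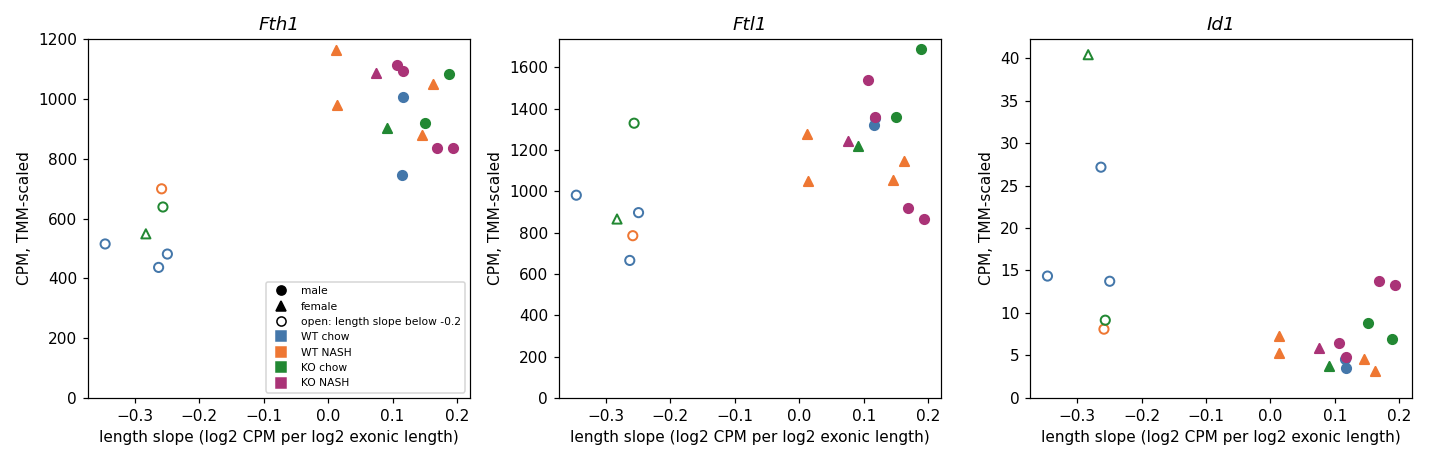
CPM of Fth1, Ftl1 and Id1 against the length slope of each library (change in log2 CPM per unit of log2 exonic length), with open symbols for the 6 libraries below -0.2. Those 6 are the 6 lowest for Fth1 and include the highest values for Id1.

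A wider list of 52 iron genes in the table, the 10 included, had 50 tested genes. In WT NASH against WT chow 3 of 50 were called, Hamp2 upwards and Hfe and Iscu downwards, a share near the 5.93% of all tested genes, and the median log2 fold change was 0.15 against 0.01 over all tested genes. Hfe, the hemochromatosis protein that acts in hepatocyte iron sensing, fell from a mean of 67.6 CPM to 42.1 CPM (log2 fold change -0.68, adjusted p = 0.0467, edgeR). In WT chow it had 77.6, 80.8 and 79.7 CPM in the 3 libraries of negative length slope and 47.6 and 52.3 CPM in the others, and in WT NASH the 1 such library was highest, at 53.8 CPM against 36.5 to 46.4 CPM. Iscu, the scaffold for iron-sulfur clusters, fell from 92.1 CPM to 45.2 CPM (-1.03, adjusted p = 0.0433). It had 122, 86.1 and 149 CPM in the same 3 WT chow libraries and 55.1 and 48.2 CPM in the others, and 67.5 CPM in that WT NASH library against 37.6 to 42.4 CPM. The part of these libraries in both differences was not tested. In KO chow against WT chow 1 of 50 was called, beside 5.53% of all tested genes, with a median of -0.10 against 0.00 over all tested genes. That gene was Abcb8, a transporter of the mitochondrial inner membrane, which rose from 19.4 CPM to 30.2 CPM (0.64, adjusted p = 0.0487, edgeR).

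In KO NASH against WT NASH 6 of 50 were called, 3 in each direction, beside 9.65% of all tested genes, with a median of -0.09 against 0.00 over all tested genes. Beside Bmp6, Tfrc and Slc40a1, the calls were Slc39a8, Fbxl5 and Abcb8. Slc39a8, a metal importer, had 33.3 to 44.7 CPM in WT NASH and 21.1 to 26.9 CPM in KO NASH, and it fell by 0.75 on the log2 scale (adjusted p = 0.0223, edgeR). Fbxl5, the iron-sensing subunit of the ubiquitin ligase that degrades iron regulatory protein 2, had 25.8 to 31.4 CPM in WT NASH and 18.2 to 22.7 CPM in KO NASH, and it fell by 0.52 (adjusted p = 0.0311, edgeR). Abcb8 rose by 0.60 (adjusted p = 0.0472). Neither Slc39a8, Fbxl5 nor Abcb8 overlapped between these groups, as was the case for 14.1% of all tested genes.

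In KO NASH against KO chow 2 of 50 were called, both upwards, beside 3.29% of all tested genes, with a median of 0.16 against -0.02 over all tested genes. Hfe2, listed under the older symbol of hemojuvelin, the BMP co-receptor of hepatocytes, had 25.0 to 52.2 CPM in KO chow and 57.5 to 109 CPM in KO NASH (log2 fold change 1.16, adjusted p = 0.0262, edgeR). Slc39a14, an importer of iron that is not bound to transferrin, had 77.8 to 215 CPM in KO chow and 278 to 361 CPM in KO NASH (1.06, adjusted p = 0.0363). For the interaction, edgeR called 0 of 50, beside 0.139% of all tested genes (5 had an unadjusted p below 0.05) and DESeq2 called 1. With sex as a term, no iron gene was called for the diet in WT livers or for the genotype on either diet.

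Red cell markers were followed beside these genes. The 7 erythroid markers summed to 81.7 to 246 CPM on chow against 25.0 to 179 CPM on the NASH diet in WT, and to 90.2 to 182 CPM against 34.7 to 86.9 CPM in KO. The male WT NASH library, replicate 4, had 179 CPM, within the range of WT chow, and the 4 female ones had 25.0 to 39.7 CPM. Of these, Hbb-bs and Hbb-bt were called lower on the NASH diet in both genotypes (2 of 5 tested). Of all tested genes, 5.93% were called for the diet in WT and 3.29% in KO. Hbb-bs differed by -2.31 in WT and by -2.57 in KO on the log2 scale. The other 3 tested markers were not called, and Alas2 differed by -1.06 in WT and by 0.56 in KO. Alas2 made up a large part of the sums. It averaged 76.3 CPM of a mean sum of 170 CPM in WT chow, and 37.0 of 61.2 CPM in WT NASH. In KO it averaged 25.3 of 122 CPM on chow and 37.3 of 57.3 CPM on the NASH diet. The part of the erythroid markers in the differences of Hfe2 and Slc39a14 with diet was not tested.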

How the data were processed

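The authors deposited 1 table of raw counts per gene symbol for 20 liver libraries, 1 column each, with no pooling. The submitters' processing notes name HISAT2 2.0.4 and GRCm38, and neither counting program, annotation nor strand setting is given there or in the labels. Columns marked HFD were read as the NASH groups, since the others name chow. Analysis used edgeR 4.0.16 in R 4.3.3: filterByExpr (minimum count 10) kept 14440 genes holding 99.9% of counts, and libraries were scaled with TMM. One model with a coefficient per group was fitted to all 20 libraries, with quasi-likelihood F tests; genes were called at adjusted p under 0.05 (Benjamini-Hochberg, all tested genes). SE came from the log2 fold change and F, and intervals span 1.96 SE on each side. These intervals are approximate and narrower than the F test implies.

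Sex was called from 4 Y-linked genes (male at 100 counts or more). The length slope is that of log2 CPM, relative to the mean library, on log2 exonic length (9480 genes, GENCODE M21). Correlations used 100000 permutations, two-sided. The procedure was tested on simulated data. Alternatives were RLE size factors, no filter, DESeq2 1.42.0, a replicate block, sex and slope terms, male libraries only, no negative-slope libraries, KO NASH replicates 1 and 5 summed, and each library left out. Named genes are the 10, Pck1, per comparison up to 3 called iron genes of smallest adjusted p (mean at least 1 CPM), and the 3 genes most correlated with each hepcidin. Marker genes are named where called beside a result. Members and lists were chosen with earlier results of these data known. Promoters came from RefSeq. Protein sequences were not used here. Bmp6, the lowest of the 10 by mean level, rested on 22 counts in its lowest library. Hamp2 rested on 20 counts in WT chow replicate 3. Counting error therefore bears most on Bmp6 and on Hamp2 in WT chow.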

Additional observations from a re-analysis of the deposited data

Results flagged for a closer look

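In 3 of 40 sets of 5 libraries (the 10 genes in the 4 groups), 1 library stood apart from the others by the size of its gap. By chance this rule flags about 1 in 20 sets where values are normally distributed, which was not tested for these CPM. Hamp had 939.8 CPM in WT chow replicate 4, against 267 CPM in the next library. Id1 had 40.4 CPM in KO chow replicate 5, against 9.15 CPM in the next. Both libraries are among the 6 of negative length slope. Bmp6 had 5.59 CPM in KO chow replicate 3, a female, against 3.66 CPM in the next.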

How the results depend on the processing

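Settings are given with counts of called genes among the 10 and among the 50 iron genes, then with log2 fold changes of single genes whose sign changed. None of those single-gene values was called, with or without the alternative, and the cause of each change was not tested. With DESeq2, 2 of the 10 were called for the diet in WT, 2 for the genotype on chow, 1 for the diet in KO and 1 for the interaction; of the iron genes 5 were called for the genotype on chow, 6 for the diet in KO and 1 for the interaction. Without the low-count filter, 1 of the 10 was called for the genotype on chow, and 1 iron gene for the diet in WT, 3 for the genotype on the NASH diet and 1 for the diet in KO. With RLE size factors no count moved by more than 1.5 times.

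With sex as a term, 0 of the 10 and 0 iron genes were called for the diet in WT, 0 and 0 for the genotype on the NASH diet, and 0 iron genes for the genotype on chow. Signs changed for Hamp2 with the diet in KO (0.60), Id1 with the genotype on chow (-0.035) and Trf for the interaction (0.012). With the length slope as a term, 2 of the 10 and 5 iron genes were called for the diet in WT, 2 and 8 for the genotype on chow, 12 iron genes for the genotype on the NASH diet, and 1 and 2 for the interaction. Signs changed for Ftl1 with the diet in WT (-0.11), Fth1 with the genotype on the NASH diet (-0.12), and Hamp (0.53), Hamp2 (0.44) and Id1 (0.35) with the diet in KO. With both terms, 0 of the 10 and 0 iron genes were called for the diet in WT, 1 and 9 for the genotype on chow, and 6 iron genes for the diet in KO and 1 for the interaction. Signs changed for Ftl1 with the diet in WT (-0.056), Hamp with the genotype on chow (0.082), Fth1 with the genotype on the NASH diet (-0.093), and Hamp (0.42), Hamp2 (1.55) and Id1 (0.36) with the diet in KO.

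Among male libraries only, where WT NASH has 1 library that is assumed to vary like the others, 0 of the 10 and 0 iron genes were called for the diet in WT, 0 and 3 for the genotype on the NASH diet, and 0 iron genes for the genotype on chow and for the diet in KO. Signs changed for Ftl1 with the diet in WT (-0.44), Id1 with the genotype on chow (-0.59), Hamp2 (0.85) and Tfr2 (0.18) with the genotype on the NASH diet, Hamp (0.053), Hamp2 (0.78), Id1 (0.21) and Tfrc (0.00063) with the diet in KO, and Fth1 (0.025), Ftl1 (0.12) and Trf (0.34) for the interaction. The r of Bmp6 with Hamp was 0.13 and that of Tfrc with Hamp 0.0091, both of changed sign, and that of Id1 with Hamp was 0.70 (permutation test, adjusted p = 0.0404). Without the 6 libraries of negative length slope, 3 iron genes were called for the genotype on chow, 13 for the genotype on the NASH diet and 4 for the diet in KO. Signs changed for Slc40a1 (-0.0066), Ftl1 (-0.23) and Id1 (0.33) with the diet in WT, Hamp (0.81) and Bmp6 (0.015) with the genotype on chow, Fth1 with the genotype on the NASH diet (-0.036), and Hamp (0.17), Hamp2 (0.41), Id1 (0.44) and Tfr2 (-0.0195) with the diet in KO. The r of Bmp6 with Hamp was 0.075, of changed sign, and that of Hamp with Hamp2 was 0.77 (permutation test, adjusted p = 0.00795).

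With KO NASH replicates 1 and 5 summed, 1 of the 10 and 1 iron gene were called for the genotype on the NASH diet, and 1 iron gene for the diet in WT, 0 for the genotype on chow and 1 for the diet in KO. Over 30 pairs of libraries with equal replicate numbers, deviations from the group means correlated by -0.41 to 0.49 (median 0.05), 13 of them above 0.1. Pairs of unequal numbers were not computed, so these values cannot tell whether equal numbers mark a shared litter or batch. With the replicate block, 2 of the 10 were called for the diet in WT and 0 iron genes for the genotype on chow, Tfrc was not called for the genotype on the NASH diet (1.13, adjusted p = 0.052, edgeR), and signs changed for Id1 with the genotype on chow (-0.064) and for Hamp (0.16) and Hamp2 (0.073) with the diet in KO.

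Leaving out 1 library at a time gave, for the 10 genes, 1 to 2 calls for the diet in WT, 1 to 3 for the genotype on the NASH diet, and 0 to 1 for each of the genotype on chow, the diet in KO and the interaction. The iron genes gave 1 to 6 calls for the diet in WT, 0 to 3 for the genotype on chow, 1 to 6 for the genotype on the NASH diet, 0 to 6 for the diet in KO and 0 to 1 for the interaction. The r of Bmp6 with Hamp ran from -0.10 to 0.0898. Ranges that crossed 0 were, for the diet in WT, Ftl1 -0.093 to 0.13. For the genotype on chow they were Hamp -0.90 to 0.25, Bmp6 -0.29 to 0.049, Id1 -0.78 to 0.62 and Slc40a1 -0.40 to 0.083, and for the genotype on the NASH diet Fth1 -0.037 to 0.14. For the diet in KO they were Hamp -0.29 to 0.21, Hamp2 -0.35 to 0.36, Id1 -0.87 to 0.28, Tfr2 -0.012 to 0.17 and Tfrc -0.46 to 0.10.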
